A study of Mus musculus with 8 samples.

Results

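The genes described here encode RNA polymerase subunits, Mediator subunits and the proteins that splice, trim and unwind RNA in the nucleus. They were chosen by symbol, as genes beginning with Polr, Med, Sf3, Srsf, Snrp, Hnrnp, Ddx, Dhx, Lsm, Prpf, Cpsf or Exosc (Med, Ddx, Dhx and Lsm followed by a number). A probe was kept when its detection p-value, the array software's measure of signal above background, was under 0.05 on at least 4 of 8 arrays, and the brightest kept probe stands for its gene. The array carried 94 genes with such symbols, and 73 of them were kept, out of 4137 named genes and 12281 kept probes in all. Of the 73 members, 70 were detected on all 8 arrays and 3 (Polr3f, Ddx19b and Med14) on 4 to 7. The rule itself used no comparison between the groups, but the members were chosen with earlier results of these data known.

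RNA was measured in mammary tumours of female FVB/N-Tg(MMTV-PyVT)634Mul/J mice, in which the mouse mammary tumour virus promoter drives polyoma virus middle T antigen (MMTV-PyVmT) mainly in mammary epithelium. Every mouse carried this transgene. The SKI-606 group (n = 4 arrays) received SKI-606, also called bosutinib, an inhibitor of Src and Abl family kinases, at 100 mg/kg by oral gavage in a carrier of methocellulose (0.5%) with the detergent Tween 80 (0.4%). The vehicle group (n = 4 arrays) is labelled as vehicle-treated, without a drug, and its samples are recorded with the same carrier. Neither age nor length of treatment is given in the sources used here. The sources name RNA from each mouse but do not tie each array to its own animal, so the p-values cover only the spread among these 8 samples, which may be technical. A numbered tumour below means the sample on 1 array.

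All 8 arrays lay on 1 chip, with the SKI-606 samples at the first positions and the vehicle samples at the last, so group and position cannot be told apart. For SKI-606 replicate 2, 1 label speaks of human islet cells, while the title, strain and tissue match the group, and the sample was kept by its title. The vehicle sample whose title has no number is called replicate 3 here. Luminal keratins were bright in both groups, with Krt8 at 12.98 ± 0.34 in SKI-606 tumours, against 13.08 ± 0.12 in vehicle tumours on the normalized log2 scale (SD, n = 4 each), and Ddx3y, a Y-linked helicase, was detected on no array. Across all kept probes, which are not independent, vehicle tumour 4 correlated with the other vehicle tumours at 0.949 to 0.962, against 0.977 to 0.992 among those 3. SKI-606 tumours correlated with each other at 0.942 to 0.969, while SKI-606 tumour 2 reached 0.984 with vehicle tumour 2 and SKI-606 tumour 4 reached 0.983 with vehicle tumour 3. The number of probes detected ranged between 11837 and 12467 on SKI-606 arrays and between 11957 and 12578 on vehicle arrays (exact two-sided permutation test, p = 0.457, where the smallest possible p is 0.0286). The 18S ribosomal RNA probe read 6575 ± 2613 intensity units on SKI-606 arrays and 10840 ± 2237 on vehicle arrays (SD, n = 4 each, exact permutation p = 0.0857).

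RNA polymerases I, II and III make ribosomal RNA, messenger RNA and small RNAs such as transfer RNA, and some of their subunits are shared. Mediator is a large complex that links transcription factors on enhancers to RNA polymerase II at promoters. The new transcript is bound by hnRNP and SR proteins, spliced by small nuclear ribonucleoproteins (snRNPs) whose core is a ring of Sm or Lsm proteins, cleaved at its 3′ end, and trimmed or destroyed by the RNA exosome, with DEAD-box and DEAH-box helicases acting at many of these steps.

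No member passed an adjusted p of 0.05 (limma, Benjamini-Hochberg over 12281 probes). That threshold was passed by 0.00814% of all probes upwards, which is 1 probe, and by 0% downwards. Below it, the members leaned one way. In SKI-606 tumours 62 of 73 members had a lower mean than in vehicle tumours (84.9%), against 52.6% of all kept probes. The median difference, SKI-606 minus vehicle, was -0.12 log2 units over the members and -0.01 over all kept probes. At an unadjusted limma p under 0.05, 20 members were lower (27.4%), where 10.3% of all kept probes were, and 0 were higher, where 6.04% of all kept probes were. The 4 SKI-606 values lay entirely below the 4 vehicle values for 9 members (12.3%, against 7.42% of all kept probes) and entirely above them for 0 (against 3.76%). A mean log2 signal over 8 was reached by 45 of 73 members and 5003 of 12281 probes. Above that limit, chosen after the data were seen, 16 of 45 members were lower at an unadjusted p under 0.05 (35.6%, against 13.2% of such probes), 5 lay entirely below the vehicle values (11.1%, against 8.28%) and 41 were below 0 (91.1%, against 55.2%), while 0 were higher at that p (against 7.84%) and 0 lay entirely above (against 4.28%). These shares describe the arrays, and members of 1 complex are not independent of each other. Scaling the arrays to a common median in place of quantile normalization moved the median of all probes to 0.14 and that of the members to -0.07. With that scaling 47 members in place of 62 were below 0, and the share of all probes below 0 was not counted. At an unadjusted limma p under 0.05, 15 members were then lower (20.5%, against 6.07% of all kept probes) and 0 higher (against 9.44%).

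**Figure D1:**
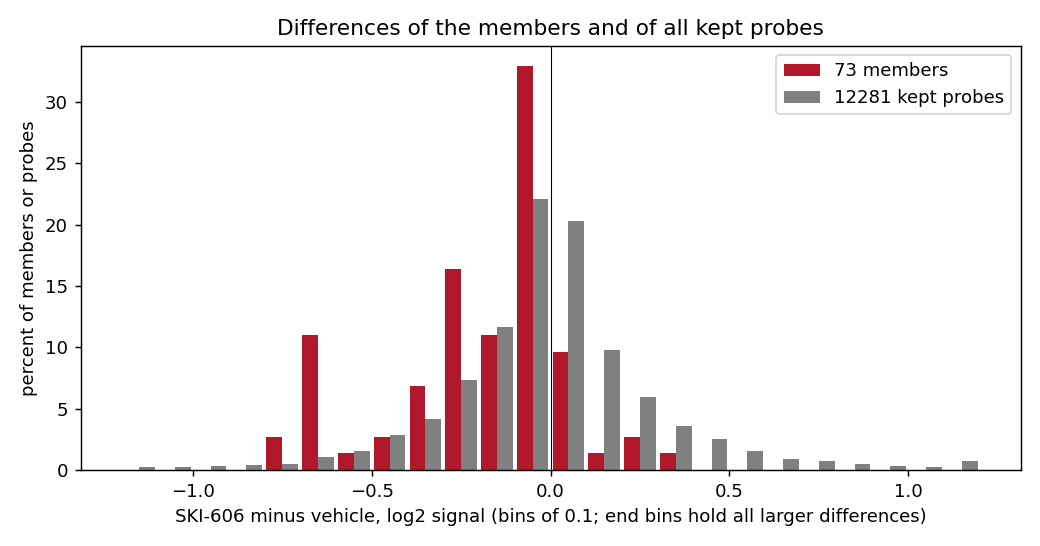
Distribution of the difference SKI-606 minus vehicle in log2 signal (horizontal axis, bins of 0.1) as a percent of the 73 members (red) and of the 12281 kept probes (grey). The members' median lies at -0.12 and that of all probes at -0.01, and the bin between -0.7 and -0.6 holds 8 members and 1.07% of all probes.

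Signals of different genes are not set against each other as levels of RNA, since each probe has its own brightness. Several of these families, the hnRNP and Sm proteins among them, have processed pseudogenes, and whether a probe also binds such copies was not tested. In whole tumours, fewer cells of a type and less RNA per cell cannot be told apart. Counts per family below stand against the shares of all kept probes, 52.6% below 0 and 10.3% lower at an unadjusted limma p under 0.05.

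Among the RNA polymerase subunits, 10 of 11 measured genes were below 0 by their means, with a median of -0.06, and 3 were lower at an unadjusted p under 0.05. Polr2k encodes the smallest subunit that all 3 polymerases share. Its normalized log2 signal was 9.003, 8.99, 9.15 and 9.19 in SKI-606 tumours 1 to 4, against 9.48, 9.12, 9.51 and 9.39 in vehicle tumours 1 to 4. Vehicle tumour 2 lay within the SKI-606 range and the other vehicle tumours lay above it. The difference was -0.29 ± 0.10 (SE, limma adjusted p = 0.225). Polr2h, another shared subunit, differed by -0.41 ± 0.15 (limma adjusted p = 0.258), and Polr1e, a subunit of polymerase I, by -0.36 ± 0.15 (limma adjusted p = 0.291). In both genes SKI-606 tumours 1 and 3 were lowest, and 3 of the 4 SKI-606 values were below every vehicle value. The other subunits were near 0. Polr1a, the largest polymerase I subunit, differed by -0.06 (95% interval -0.45 to 0.32), Polr2i, a polymerase II subunit, by 0.01 (-0.32 to 0.33), and Polr3k, a small polymerase III subunit, by -0.09 (-0.42 to 0.24). The probe for Polr2a, the largest polymerase II subunit, averaged only 6.27 in SKI-606 tumours, against 6.28 in vehicle tumours, where the lowest kept signals were near 5.9, so it says little.

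Mediator held the member with the smallest p, and none of its other measured subunits was lower at an unadjusted p under 0.05. Med30 encodes a Mediator subunit found in animals and absent from yeast. It read 10.03, 10.30, 10.13 and 10.27 in SKI-606 tumours 1 to 4, against 10.99, 10.64, 10.85 and 10.98 in vehicle tumours 1 to 4. All SKI-606 tumours were low, including tumours 2 and 4, and the groups did not overlap. The difference was -0.68 ± 0.10 (SE), or 1.60-fold lower (95% interval 1.36 to 1.88), with a limma p of 1.84e-04 and an adjusted p of 0.0987, rank 20 among all kept probes. Its signal before normalization was 776, 1354, 1207 and 1371 in SKI-606 tumours, against 2184, 1898, 2019 and 1715 in vehicle tumours. When any 1 array was left out, the adjusted p stayed between 0.069 and 0.26. With arrays weighted by their quality, Med30 was 1 of 185 probes that passed the adjusted threshold, with a difference of -0.63.

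The other 9 measured Mediator genes lay between -0.28 and 0.28, with 4 genes above 0 and 5 below. Med28, a subunit of the head module, differed by -0.28 ± 0.22 (limma adjusted p = 0.596) and by -0.48 without vehicle tumour 4, which was at 9.62, against 10.23 to 10.56 in the other vehicle tumours. Med24, a tail subunit, differed by -0.15 ± 0.08 (limma adjusted p = 0.419). Med25, a subunit that binds activators, averaged 11.25 in SKI-606 tumours, against 11.28 in vehicle tumours, a difference of -0.03 (95% interval -0.33 to 0.27). Med14, the backbone of the complex, and Med13l, of its kinase module, had probes near the lowest kept signal. Med20 stood at 7.65, 7.61, 7.86 and 7.64 in SKI-606 tumours 1 to 4, against 7.74, 7.66, 8.02 and 6.20 in vehicle tumours 1 to 4. Its mean difference of 0.28 had the sign that vehicle tumour 4 gave it, and was -0.12 without that tumour.

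**Figure D2:**
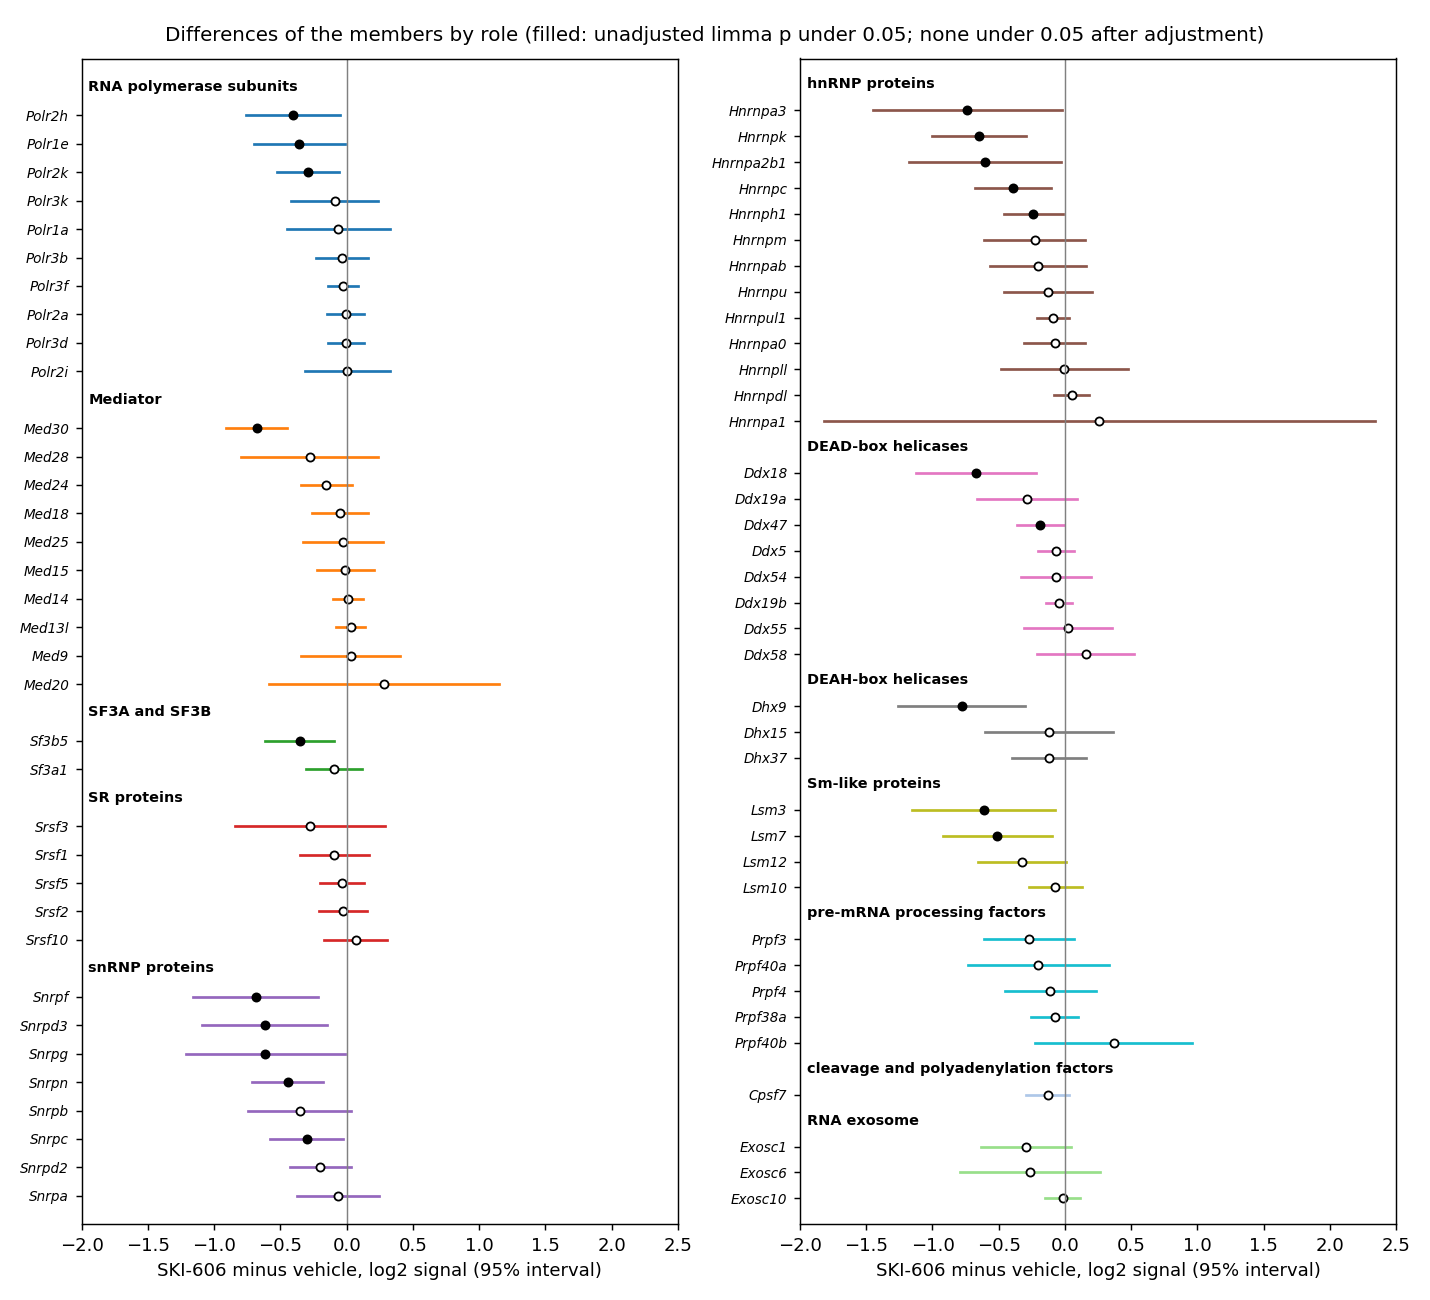
Difference SKI-606 minus vehicle in log2 signal (horizontal axis, line = 95% interval from limma) for the members by role, with filled points for an unadjusted p under 0.05. The 20 filled points all lie below 0, Med30 has the smallest p, and the interval of Hnrnpa1 runs between -1.82 and 2.34.

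Of the snRNP proteins, all 8 measured genes were below 0 by their means, with a median of -0.40, and 5 of them were lower at an unadjusted p under 0.05. Snrpf, Snrpg and Snrpd3 encode parts of the Sm ring that surrounds the small nuclear RNAs of U1, U2, U4 and U5. Snrpf read 10.15, 11.14, 10.30 and 10.63 in SKI-606 tumours 1 to 4, against 11.15, 11.24, 11.25 and 11.33 in vehicle tumours 1 to 4. The vehicle tumours lay close together, and SKI-606 tumour 2 was just below the lowest of them. The difference was -0.69 ± 0.20 (SE), or 1.61-fold lower (95% interval 1.16 to 2.23, limma adjusted p = 0.186). Snrpd3 differed by -0.62 ± 0.20 (limma adjusted p = 0.207) and Snrpg by -0.61 ± 0.26 (limma adjusted p = 0.297), both lowest in SKI-606 tumours 3 and 1. Snrpd2, also in the ring, differed by -0.20 ± 0.10 (limma adjusted p = 0.38). Snrpb differed by -0.35 ± 0.17 at its brightest probe (limma adjusted p = 0.352) and by -0.59 ± 0.18 at a dimmer probe (limma adjusted p = 0.187), where the groups did not overlap.

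Snrpc and Snrpa encode the U1-C and U1-A proteins, which belong to the U1 particle that recognises the 5′ splice site. Snrpc read 7.20, 7.18, 6.77 and 7.08 in SKI-606 tumours 1 to 4, against 7.57, 7.26, 7.33 and 7.26 in vehicle tumours 1 to 4. The groups did not overlap, but SKI-606 tumours 1 and 2 were within 0.1 of vehicle tumours 2 and 4. The difference was -0.30 ± 0.12 (SE, limma adjusted p = 0.271), against -0.07 ± 0.13 for the brightest Snrpa probe (limma adjusted p = 0.858). Dimmer Snrpa probes differed by -0.34 ± 0.15 (limma adjusted p = 0.326) and -0.20 ± 0.15 (limma adjusted p = 0.576). Snrpn encodes SmN, a relative of Snrpb that is imprinted, is best known from brain and shares its transcript with Snurf. Its values were 6.36, 6.32, 6.29 and 6.34 in SKI-606 tumours 1 to 4, against 6.68, 6.68, 6.60 and 7.13 in vehicle tumours 1 to 4. The groups did not overlap, and vehicle tumour 4 stood above the other vehicle tumours. Its SKI-606 values were near the lowest kept signal, and the size of the difference depends on the processing. Snrpn differed by -0.45 ± 0.12 (SE, limma adjusted p = 0.16), by -0.65 with no background correction and by -0.28 with median scaling (limma adjusted p = 0.349), and a second, dimmer Snrpn probe by -0.02 ± 0.08 (limma adjusted p = 0.923).

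Lsm proteins form the related ring of U6 and, in another combination, a ring that starts mRNA decay in the cytoplasm. All 4 measured Lsm genes (Lsm3, Lsm7, Lsm10 and Lsm12) were below 0 by the means of their brightest probes, with a median of -0.42. Not all of them belong to these rings. Lsm7, part of both rings, read 10.37, 11.18, 10.52 and 10.93 in SKI-606 tumours 1 to 4, against 11.14, 11.25, 11.34 and 11.30 in vehicle tumours 1 to 4. SKI-606 tumour 2 lay above vehicle tumour 1, and the other SKI-606 tumours were below all vehicle tumours. The difference was -0.51 ± 0.18 (SE, limma adjusted p = 0.228). Lsm3, also part of both rings, differed by -0.61 ± 0.23 (limma adjusted p = 0.256). Lsm10, a component of the U7 particle that processes histone mRNA, differed by -0.07 ± 0.09 (limma adjusted p = 0.747). Lsm12 differed by -0.32 ± 0.14 at its brightest probe (limma adjusted p = 0.32). Dimmer Lsm12 probes differed by 0.09 ± 0.33 (limma adjusted p = 0.929) and -0.02 ± 0.10 (limma adjusted p = 0.933).

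SF3A and SF3B bind U2 at the branch point. Sf3b5, the smallest SF3B subunit, read 10.87, 11.26, 10.73 and 11.08 in SKI-606 tumours 1 to 4, against 11.32, 11.34, 11.33 and 11.36 in vehicle tumours 1 to 4. The vehicle tumours were nearly alike, and every SKI-606 tumour was below them. The difference was -0.36 ± 0.11 (SE, limma adjusted p = 0.2), against -0.09 ± 0.09 for Sf3a1 (limma adjusted p = 0.677). Among the pre-mRNA processing factors, of which 5 were measured and 0 were lower at an unadjusted p under 0.05, Prpf3, a protein of the U4/U6 particle, had the smallest p. It read 8.21, 8.81, 8.61 and 8.36 in SKI-606 tumours 1 to 4, against 8.74, 8.57, 8.78 and 8.97 in vehicle tumours 1 to 4, and the groups overlapped. Prpf3 differed by -0.27 ± 0.15 (SE, limma adjusted p = 0.422). Prpf40b, whose yeast relative joins the U1 particle, had the highest difference of any member at 0.37 ± 0.25 (limma adjusted p = 0.539), which rests on SKI-606 tumour 3. Prpf40b read 6.89, 6.85, 8.01 and 7.08 in SKI-606 tumours 1 to 4, against 6.85, 6.75, 6.75 and 7.01 in vehicle tumours 1 to 4, and differed by 0.10 without SKI-606 tumour 3. Prpf4, the partner of Prpf3, differed by -0.11 ± 0.15 at its brightest probe (limma adjusted p = 0.777) and by 0.26 ± 0.07 at a dimmer one (limma adjusted p = 0.176), where the SKI-606 values lay above all vehicle values.

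**Figure D3:**
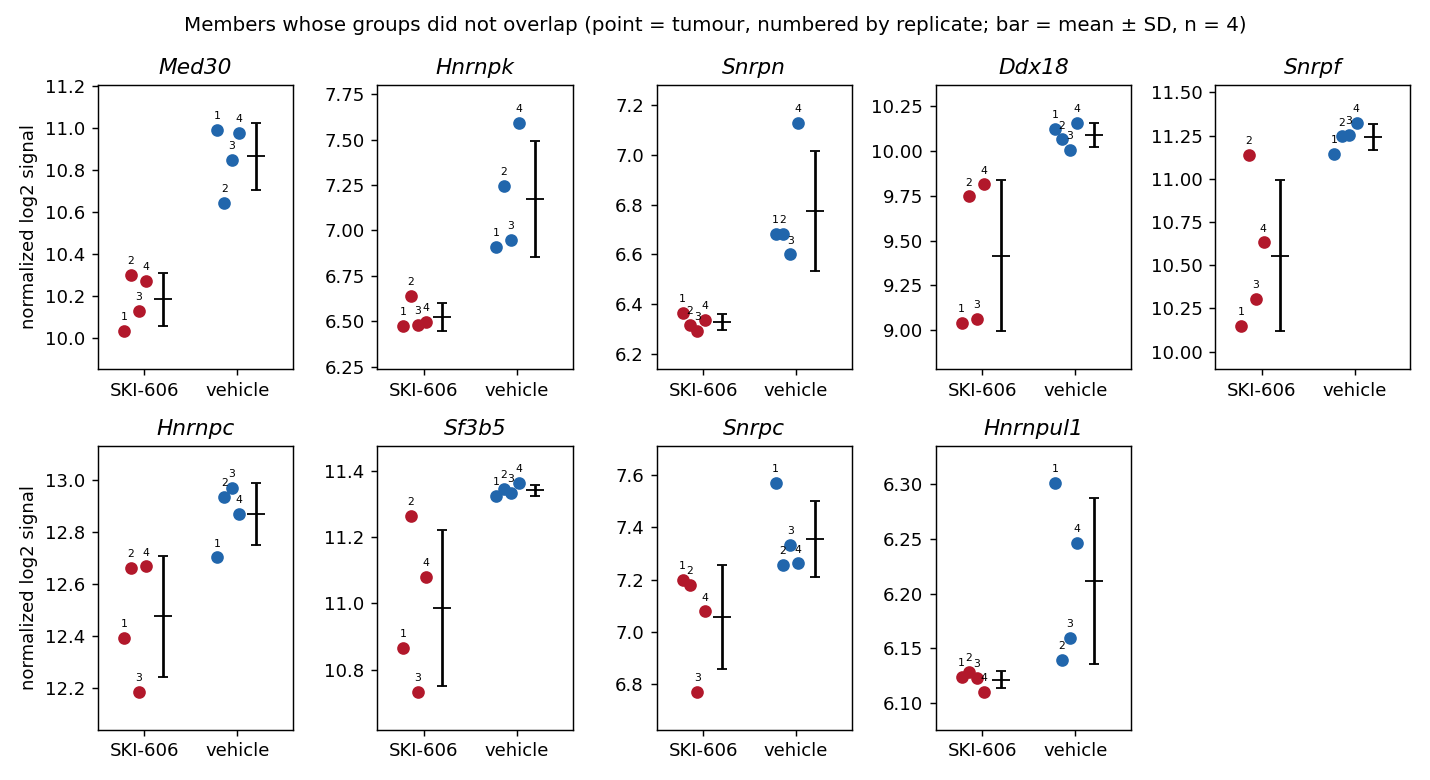
Normalized log2 signal (vertical axis, a separate scale in each panel) of the 9 members whose SKI-606 (red, left) and vehicle (blue, right) tumours did not overlap, with each tumour as a point numbered by replicate and bars for mean ± SD (n = 4). Med30 is low in all 4 SKI-606 tumours, Ddx18 and Snrpf are lowest in SKI-606 tumours 1 and 3, and the panel for Hnrnpul1 spans less than 0.3 log2 units.

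Of the hnRNP proteins, which coat the new transcript and affect which exons are used, 11 of 13 measured genes were below 0 by their means, with a median of -0.20, and 5 were lower at an unadjusted p under 0.05. Hnrnpk encodes a protein that binds C-rich RNA and DNA. It read 6.48, 6.64, 6.48 and 6.50 in SKI-606 tumours 1 to 4, against 6.91, 7.24, 6.95 and 7.59 in vehicle tumours 1 to 4. The groups did not overlap and vehicle tumour 4 was the highest. The difference was -0.65 ± 0.15 (SE), or 1.57-fold lower (95% interval 1.23 to 2.01, limma adjusted p = 0.139). Its SKI-606 values lay toward the lowest kept signal, and the size of the difference depends on the processing. Hnrnpk differed by -0.74 with no background correction, by -0.55 with median scaling and by -0.51 with an offset of 50. A second Hnrnpk probe, near the lowest kept signal, differed by -0.07 ± 0.04 (limma adjusted p = 0.453).

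Hnrnpc, which binds runs of U, had a bright probe. It read 12.39, 12.66, 12.19 and 12.67 in SKI-606 tumours 1 to 4, against 12.70, 12.93, 12.97 and 12.87 in vehicle tumours 1 to 4. The groups did not overlap, by a margin of less than 0.1. The difference was -0.39 ± 0.12 (SE, limma adjusted p = 0.199), and a second bright probe gave -0.39 ± 0.14 (limma adjusted p = 0.238). Hnrnpa3 differed by -0.74 ± 0.31 (limma adjusted p = 0.293) and Hnrnpa2b1 by -0.60 ± 0.25 (limma adjusted p = 0.283). Hnrnph1, which binds runs of G, differed by -0.24 ± 0.10 at its brightest probe (limma adjusted p = 0.276) and by -0.31 ± 0.07 at another (limma adjusted p = 0.122), where the groups did not overlap. Hnrnpul1 read 6.12, 6.13, 6.12 and 6.11 in SKI-606 tumours 1 to 4, against 6.30, 6.14, 6.16 and 6.25 in vehicle tumours 1 to 4. Those values did not overlap, yet they lie near the lowest kept signal, and the difference of -0.09 ± 0.05 had a limma adjusted p of 0.459.

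Hnrnpa1, an abundant repressor of splice sites, was decided by 1 array. It read 9.90, 10.52, 9.19 and 10.28 in SKI-606 tumours 1 to 4, against 10.79, 10.67, 10.54 and 6.86 in vehicle tumours 1 to 4. Vehicle tumour 4 was far below the other vehicle tumours, all of which exceeded every SKI-606 tumour. The difference was 0.26 ± 0.89 with that tumour (SE, limma adjusted p = 0.923) and -0.69 without it. Hnrnpab differed by -0.20 ± 0.15 (limma adjusted p = 0.583) and by -0.05 without SKI-606 tumour 1. Hnrnpdl differed by 0.05 ± 0.06 (limma adjusted p = 0.728).

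SR proteins, which promote the use of exons, were near 0. Of 5 measured genes, 4 were below 0 by their means, with a median of -0.04, and 0 were lower at an unadjusted p under 0.05. Srsf3 read 7.14, 8.15, 8.05 and 8.28 in SKI-606 tumours 1 to 4, against 8.30, 8.01, 8.30 and 8.12 in vehicle tumours 1 to 4. Only SKI-606 tumour 1 was outside the vehicle range on the low side, and the difference was -0.28 ± 0.24 (SE, limma adjusted p = 0.642), or -0.02 without that tumour. The differences of Srsf1 (-0.09, 95% interval -0.35 to 0.17), Srsf2 (-0.03, -0.21 to 0.15) and Srsf5 (-0.04, -0.20 to 0.13) had intervals that span 0.

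Of 8 DEAD-box helicases 6 were below 0 by their means and 2 were lower at an unadjusted p under 0.05, and of 3 DEAH-box helicases 3 were below 0 and 1 was lower at that p. Ddx18 acts in the nucleolus in ribosome assembly, in yeast as Has1. It read 9.04, 9.75, 9.06 and 9.81 in SKI-606 tumours 1 to 4, against 10.12, 10.06, 10.004 and 10.16 in vehicle tumours 1 to 4. SKI-606 tumours 1 and 3 were lowest, tumours 2 and 4 were also below every vehicle tumour, and the vehicle tumours were close together. The difference was -0.67 ± 0.20 (SE), or 1.59-fold lower (95% interval 1.16 to 2.19, limma adjusted p = 0.183). Ddx47, which also acts on ribosomal RNA, differed by -0.19 ± 0.08 (limma adjusted p = 0.289). Dhx9, or RNA helicase A, had the lowest difference of any member. It read 7.08, 8.01, 7.22 and 7.29 in SKI-606 tumours 1 to 4, against 8.35, 7.99, 8.08 and 8.31 in vehicle tumours 1 to 4. SKI-606 tumour 2 lay within the vehicle range and the other SKI-606 tumours were well below it. The difference was -0.78 ± 0.21 (SE), or 1.72-fold lower (95% interval 1.23 to 2.40, limma adjusted p = 0.163). Dhx15, which takes the spliceosome apart, differed by -0.12 ± 0.21 (limma adjusted p = 0.828) and by -0.29 without vehicle tumour 4, which was at 10.03, against 10.60 to 10.82 in the other vehicle tumours. Ddx58, the viral RNA sensor RIG-I, differed by 0.16 ± 0.16 (limma adjusted p = 0.69). The probe of Ddx5 was near the lowest kept signal.

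Only 1 cleavage and polyadenylation gene was measured. Cpsf7, a subunit of cleavage factor I, read 6.09, 6.18, 6.25 and 6.20 in SKI-606 tumours 1 to 4, against 6.30, 6.29, 6.20 and 6.46 in vehicle tumours 1 to 4. Its signal is near the lowest kept, the groups overlapped, and the difference was -0.13 ± 0.07 (SE, limma adjusted p = 0.414). Of the 3 measured RNA exosome genes, Exosc1, a cap subunit, read 9.27, 9.78, 9.16 and 9.64 in SKI-606 tumours 1 to 4, against 9.70, 9.79, 9.64 and 9.89 in vehicle tumours 1 to 4. SKI-606 tumours 1 and 3 were the low ones, and the difference was -0.29 ± 0.15 (SE, limma adjusted p = 0.383). Exosc6, of the ring, differed by -0.26 ± 0.23 (limma adjusted p = 0.634) and by -0.07 without SKI-606 tumour 1, and Exosc10, a nuclease, by -0.02 ± 0.06 (limma adjusted p = 0.913).

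The members differed between tumours of the SKI-606 group. Averaged over all 73, the log2 signal relative to the vehicle mean was -0.32, -0.07, -0.30 and -0.09 in SKI-606 tumours 1 to 4, against 0.01, 0.00, 0.03 and -0.04 in vehicle tumours 1 to 4. SKI-606 tumours 1 and 3 were lower than tumours 2 and 4. Their arrays had the fewest probes detected, 11837 and 11901, against 12467 and 12240 for SKI-606 tumours 2 and 4. Vehicle tumour 4 came next, at 11957. Quality weights were also lowest for SKI-606 tumours 1 and 3, at 0.44 and 0.39, with vehicle tumour 4 at 0.45. With arrays so weighted, 58 of 73 members were below 0, with a median of -0.11, against -0.01 over all kept probes. At an unadjusted limma p under 0.05, 18 members were then lower (24.7%, against 10.8% of all kept probes) and 0 higher (against 8.96%). The share of all probes below 0 was not counted with these weights. The part of array quality in the members' differences was not otherwise tested. The snRNP proteins stood at -0.59, -0.11, -0.65 and -0.30 in SKI-606 tumours, against 0.02, -0.04, -0.04 and 0.06 in vehicle tumours. The Sm-like proteins stood at -0.42, -0.14, -0.71 and -0.24 in SKI-606 tumours, against -0.03, -0.05, 0.07 and 0.01 in vehicle tumours. In both groups of proteins every SKI-606 tumour was below every vehicle tumour. For the hnRNP proteins the values were -0.37, -0.01, -0.43 and -0.13 in SKI-606 tumours, against 0.06, 0.07, 0.09 and -0.22 in vehicle tumours, where Hnrnpa1 lowers vehicle tumour 4.

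Genes of the cell cycle and of other cell types also differed between these tumours. The mean of 7 measured S phase genes was -0.95, 0.12, -1.08 and 0.06 in SKI-606 tumours 1 to 4, against -0.12, 0.05, 0.13 and -0.06 in vehicle tumours 1 to 4. The mean of 8 mitosis genes was -0.39, 0.14, -2.70 and -0.15 in SKI-606 tumours, against -0.11, 0.10, 0.06 and -0.05 in vehicle tumours. SKI-606 tumours 1 and 3, lowest for the members, were lowest for both lists. All 5 measured endothelial markers of 13 listed were higher by their means in SKI-606 tumours, and 5 were so at an unadjusted limma p under 0.05, with a median difference of 0.55 and summed levels (log2 of the summed signal) of 10.56 to 11.06 in SKI-606 tumours and 10.01 to 10.35 in vehicle tumours. Of 8 measured fibroblast and matrix markers of 12 listed, 7 were higher by their means and 4 at an unadjusted limma p under 0.05, with summed levels of 13.61 to 13.99 in SKI-606 tumours and 12.73 to 13.35 in vehicle tumours. Of 4 milk genes, all 4 were higher by their means, 3 of them at an unadjusted limma p under 0.05, with a median of 2.16. Both measured adipocyte markers of 10 listed were higher by their means, 1 of them at an unadjusted limma p under 0.05, and their mean was 2.17, 0.18, 0.86 and 1.37 in SKI-606 tumours 1 to 4, against -0.46, -0.15, 0.11 and 0.49 in vehicle tumours 1 to 4. Their summed levels were 11.29 to 13.13 in SKI-606 tumours and 11.09 to 11.69 in vehicle tumours. Of 5 macrophage markers, 4 were lower and 1 higher by their means. At an unadjusted limma p under 0.05, 0 were lower, and 1 was higher, Csf1r, at 0.35 ± 0.12 (SE, limma adjusted p = 0.232). Of 10 lymphocyte markers 1 was measured. The 4 luminal epithelial markers had a median of -0.05. These marker lists are small. Of all kept probes, 6.04% were higher and 10.3% lower at an unadjusted limma p under 0.05, and 52.6% were below 0. No marker list had a gene past the adjusted threshold, and the part of the cell cycle or of the mix of cells in the members' differences was not tested.

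**Figure D4:**
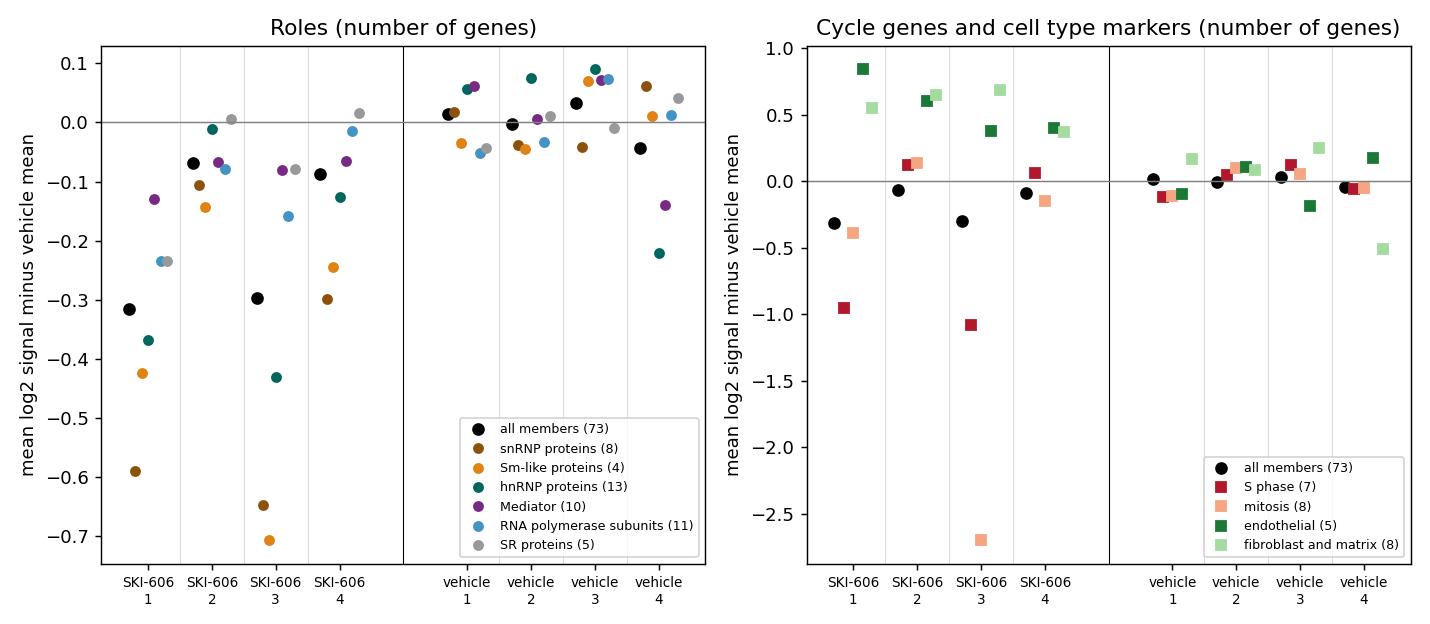
Mean log2 signal minus the vehicle mean (vertical axis) in each tumour for all members and 6 roles (left panel) and for all members, cycle genes and markers of endothelium and fibroblasts (right panel), with the number of genes in the legend. SKI-606 tumours 1 and 3 are lowest for the members and for S phase genes, while endothelial markers are above 0 in all 4 SKI-606 tumours.

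Genes that work with the members, in lists of 194 symbols of which 87 were measured, were counted the same way. Of these 87 genes, 68 were below 0 by their means (against 52.6% of all kept probes), with a median of -0.11. At an unadjusted limma p under 0.05, 20 were lower (23.0%, against 10.3% of all kept probes) and 2 were higher (against 6.04%). The separate lists below are small, and their counts stand against the same shares. None passed the adjusted threshold. Of 12 general transcription factors, 4 were lower at an unadjusted p under 0.05. Taf10, a TFIID subunit, averaged 10.21 ± 0.13 in SKI-606 tumours, against 10.51 ± 0.03 in vehicle tumours (SD, n = 4 each, difference -0.29, limma adjusted p = 0.144). Gtf2h3, a TFIIH subunit, differed by -0.32 ± 0.09 (SE, limma adjusted p = 0.169). Both separated the groups in every tumour.

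Among 12 elongation factors and Mediator partner kinases only Cdk8, the kinase of the Mediator kinase module, was lower at an unadjusted p under 0.05. It read 8.56, 8.68, 8.81 and 8.54 in SKI-606 tumours 1 to 4, against 9.07, 8.99, 8.91 and 9.10 in vehicle tumours 1 to 4. The groups did not overlap, and the difference was -0.37 ± 0.08 (SE, limma adjusted p = 0.122). Supt16, which helps polymerase II pass nucleosomes, differed by -0.22 ± 0.12 (limma adjusted p = 0.437).

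Of 34 other splicing factors, 7 were lower and 2 higher at an unadjusted limma p under 0.05. Tra2b, a relative of the SR proteins, read 7.16, 8.16, 7.16 and 8.06 in SKI-606 tumours 1 to 4, against 8.50, 8.47, 8.56 and 8.44 in vehicle tumours 1 to 4. SKI-606 tumours 1 and 3 were again the low ones, and all 4 were below the vehicle tumours. The difference was -0.85 ± 0.25 (SE, limma adjusted p = 0.185). Celf1, which binds GU-rich RNA, differed by -0.31 ± 0.07 (limma adjusted p = 0.142). The higher genes, named after their values were seen, were Clk1, a kinase of SR proteins, at 0.37 ± 0.14 (limma adjusted p = 0.264), and Srrm2, a large protein of nuclear speckles, at 0.37 ± 0.16 (limma adjusted p = 0.299).

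Of 10 genes of the exon junction complex, the cap and mRNA export, 2 were lower at an unadjusted p under 0.05. Ncbp2, the small subunit of the nuclear cap-binding complex, averaged 8.46 ± 0.31 in SKI-606 tumours, against 9.13 ± 0.18 in vehicle tumours (SD, n = 4 each, difference -0.66, limma adjusted p = 0.152), with no overlap. Upf2, a nonsense-mediated decay factor, differed by -0.20 ± 0.08 (SE, limma adjusted p = 0.264). Of 10 other 3′ processing genes, 2 were lower. Nudt21, the partner of Cpsf7 in cleavage factor I, read 9.04, 9.80, 8.50 and 9.67 in SKI-606 tumours 1 to 4, against 10.12, 10.003, 10.21 and 10.13 in vehicle tumours 1 to 4. The groups did not overlap and SKI-606 tumours 1 and 3 were the low ones, with a difference of -0.86 ± 0.27 (SE, limma adjusted p = 0.2). Cstf1, a cleavage stimulation factor subunit, differed by -0.25 ± 0.06 (limma adjusted p = 0.157). Of 9 exosome partners and decay factors, 4 were lower. Edc3, a decapping enhancer, averaged 8.20 ± 0.20 in SKI-606 tumours, against 8.70 ± 0.08 in vehicle tumours (SD, n = 4 each, difference -0.50, limma adjusted p = 0.122), and Cnot2, a subunit of the CCR4-NOT deadenylase, differed by -0.24 ± 0.05 (SE, limma adjusted p = 0.131).

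Since members leaned the same way, the sequence before their starts was searched for short motifs. RefSeq promoters (GRCm38.p6) were found for 63 of 73 members, and 250 bases before the start were searched on both strands. A gene was counted when any of its promoter entries held the motif, so genes with several entries had more chances. CCGGAAG, the core bound by ETS factors, was found for 23.8% of these members and for 10.2% of 17491 protein-coding genes. Among members lower at an unadjusted p under 0.05, 3 of 17 held it, and among the other members 12 of 46. The GC box GGGCGG was in 61.9% of members and 45.8% of protein-coding genes, the E-box CACGTG in 7.94% and 7.61%, and TATAAA in 14.3% and 13.7%. No overlap between motifs was removed, and members had a median GC content of 60.0% there, against 55.6% for protein-coding genes. A match is only a description of these letters. The 3 promoters of lower members that hold the ETS core are given as 250 bases each, read 5′ to 3′ on the gene's strand, with the core in capitals.
Dhx9, chr1:153487661-153487910, minus strand: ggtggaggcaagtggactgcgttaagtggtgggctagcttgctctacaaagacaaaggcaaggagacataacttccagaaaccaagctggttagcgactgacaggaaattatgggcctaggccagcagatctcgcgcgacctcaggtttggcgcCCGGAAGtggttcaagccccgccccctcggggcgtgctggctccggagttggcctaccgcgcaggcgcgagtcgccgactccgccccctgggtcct
Snrpc, chr17:27839837-27840086, plus strand: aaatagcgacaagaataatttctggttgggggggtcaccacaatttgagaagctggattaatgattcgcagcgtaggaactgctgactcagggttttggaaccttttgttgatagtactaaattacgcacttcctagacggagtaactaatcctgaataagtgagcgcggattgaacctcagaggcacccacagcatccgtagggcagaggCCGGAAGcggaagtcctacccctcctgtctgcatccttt
Snrpg, chr6:86371290-86371539, plus strand: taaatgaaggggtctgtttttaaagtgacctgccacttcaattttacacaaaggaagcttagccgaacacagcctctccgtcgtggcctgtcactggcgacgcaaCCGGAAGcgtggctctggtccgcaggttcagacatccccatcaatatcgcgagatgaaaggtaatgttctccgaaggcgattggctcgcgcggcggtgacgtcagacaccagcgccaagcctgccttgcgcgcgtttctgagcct
The core begins 96 bases before the start in Dhx9, 39 in Snrpc and 145 in Snrpg.

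Leaving out 1 array at a time shows which members rest on few tumours. Of the 20 members lower at an unadjusted limma p under 0.05, 9 kept that p in all 8 such fits: Med30, Sf3b5, Snrpd3, Snrpf, Snrpn, Hnrnpc, Hnrnpk, Ddx18 and Dhx9. All 20 were below 0 in each of those fits. The 20 were selected by that p on all 8 arrays, and each fit reuses the remaining arrays, so keeping it is partly built in. How many of all kept probes kept that p was not counted. Without SKI-606 tumour 2, whose labels disagree, 23 members were lower at that p (31.5%, against 11.1% of all kept probes in that fit) and 1 was higher (against 8.09%), and 21 lay entirely below the vehicle values (28.8%, against 11.2%) and 1 above (against 7.74%). Without vehicle tumour 4, 16 were lower (21.9%, against 8.31%) and 0 higher (against 5.50%), and 12 lay entirely below (16.4%, against 9.30%) and 1 above (against 6.64%). The count of members lower at that p was 12 without SKI-606 tumour 1 (16.4%, against 9.44% of all kept probes) and 12 without SKI-606 tumour 3 (16.4%, against 8.79%). Without SKI-606 tumour 4 the count was 19 (26%, against 10.2%). It was 13 without vehicle tumour 1 (17.8%, against 7.88%), 13 without vehicle tumour 2 (17.8%, against 9.14%) and 12 without vehicle tumour 3 (16.4%, against 7.87%). On the 6 arrays numbered 1, 2 and 4 in both groups it was 8, or 11% of members, against 6.86% of all kept probes.

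The 21 genes on the array that were not kept include Polr2c, Med10, Snrpe, Hnrnpd, Hnrnpf, Lsm5, Dhx58, Cpsf3 and Ddx6, each detected on 0 arrays. Prpf31 was detected on 0 SKI-606 arrays and 2 vehicle arrays. A dim probe says nothing of the level of its RNA beyond not being above background here. Of the 10 members with more than 1 kept probe, 6 had the same sign at all probes, and 0 had probes over 0.3 in both directions.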

How the data were processed

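Total RNA (8 ng, per the labels' protocols) of 8 tumour samples was measured on Illumina arrays. The authors deposited a mean intensity for each probe on each array, which its values show to be without background subtraction or normalization, beside a detection p-value, per the file headers. A second deposited table of normalized intensity for 11434 probes served only as an alternative. The sources used here do not give the array software. The intensities were background-corrected and quantile-normalized with neqc (limma 3.58.1, R 4.3.3, offset 16), and the deposited values were so put on the log2 scale, without 4 bacterial control probes. The filter on detection is given above. Group alone was fitted with lmFit and eBayes, with Benjamini-Hochberg adjustment over all kept probes. Genes were named through the padded number in the probe identifier: 93.3% of 9490 met a gene ID of the RefSeq table (GRCm38.p6), against 48.7% after adding 1 and 25.2% after adding 1000. No other per-sample column was left aside (0).

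The members and lists were chosen with earlier results of these data known. Genes named are, in each role, those with the smallest p in each direction, the brightest, and a fixed list, with 2 genes per partner list. Other members at an unadjusted p under 0.05, and members whose second probe or single array mattered, were named after their values were seen. The number of arrays limits the precision. Same-numbered tumours had correlations of deviations from the group mean of 0.0044, 0.63 and -0.018 for numbers 1, 2 and 4, so the numbers were not taken to pair samples. Alternatives covered background, offset, normalization, filter, variance model, array weights, threshold, probe choice and each array left out. Of the members counted, 1 is not reported here by its own values.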

Additional observations from a re-analysis of the deposited data

Results flagged for a closer look

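Each value here stood far from the other 3 arrays of its own group, by a share of that group's range above the 95% limit of Dixon's test, and chance gives such a gap in about 1 in 20 groups. Of 100 groups tested, 6 showed it, which is near that rate over all groups but does not speak for any 1 array. Vehicle tumour 4 did so for Snrpn at 7.13 (the others 6.60 to 6.68), Hnrnpa1 at 6.86 (10.54 to 10.79) and Exosc6 at 7.86 (8.21 to 8.27). Some partner genes outside this test, named after their values were seen, were also low in that tumour. Pabpc1 was at 8.23 there (the others 11.83 to 11.95) and Nono at 5.98 (7.68 to 8.05). Other partner genes were not, such as Taf10 at 10.50 (10.49 to 10.55). The cause was not tested. In the SKI-606 group, Med20 in tumour 3 was 7.86 (the others 7.61 to 7.65), Hnrnpdl in tumour 4 was 10.6 (10.64 to 10.65) and Hnrnpk in tumour 2 was 6.64 (6.48 to 6.50).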

How the results depend on the processing

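Of 1254 gene and setting pairs (58 genes, 22 settings), 1188 kept direction and side of the threshold, 2 passed it and 64 in 22 genes changed sign. Probes past the adjusted threshold numbered 1 in all, and 0 with offset 50, median scaling, detection on all 8 arrays, an intensity trend with a robust prior, only bright probes (mean log2 over 8, added after seeing the data) or 6 arrays. Array weights gave 185 (1 member, Med30) and a threshold of 0.1 gave 30 (1 member, Med30). With only bright probes, members lower at an unadjusted limma p under 0.05 numbered 13 (28.9%, against 10.8% of all bright probes). At that p 0 members were higher (against 6.9%). In that setting 5 members lay entirely below the vehicle values (11.1%, against 8.28%), which is near the background. Their median was -0.23, against -0.04 over all bright probes. The bright probes were fitted alone here, so the count at that p differs from the one given earlier for bright members in the main fit. Leaving out 1 array gave 0 to 13 probes past the threshold (7 without SKI-606 tumour 1, 13 without SKI-606 tumour 2). Members at unadjusted p under 0.05 then numbered 12 to 24, with medians of -0.20 to -0.08. Non-overlapping members numbered 10 to 22 (fewer samples separate more easily). Across these fits 13.7% to 28.8% of members lay entirely below the vehicle values, against 8.92% to 11.2% of all kept probes. The replicate number as a block, over numbers 1, 2 and 4, gave 0 probes past the threshold, 7 members at unadjusted p under 0.05 (9.59%, against 7.68% of all probes, so near the background) and 15 non-overlapping (20.5%, against 11.6%), and the same 6 arrays without the block (added after seeing the data) gave 0, 8 (11%, against 6.86%) and 15. The block thus moved few counts beyond the loss of 2 arrays.

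The cause of these sign changes was not tested. With the mean of a gene's probes, Prpf4 was 0.0739. With array weights, Polr1a was 0.121, Polr2i -0.0414, Polr3k 0.0392, Med20 -0.0715, Snrpa 0.0026, Hnrnpa1 -0.235, Dhx37 0.054 and Prpf4 0.106. With median scaling, Polr2a was 0.209, Med25 0.023, Srsf1 0.0091, Srsf2 0.0602, Hnrnpul1 0.148, Ddx5 0.163, Dhx37 0.0101, Prpf38a 0.148, Cpsf7 0.0945 and Exosc10 0.182. With the authors' deposited values, Polr2a was 0.0037. With cyclic loess, Polr2a was 0.0134, Med25 0.0122, Srsf2 0.03 and Exosc10 0.0084. On 6 arrays, with the replicate block or without, Polr2a was 0.0347, Polr2i -0.0631, Polr3k 0.0798, Ddx55 -0.063, Dhx15 0.0394, Lsm10 0.0188 and Exosc10 0.0065. Leaving out 1 array gave Polr1a -0.155 to 0.071, Polr2i -0.0866 to 0.103, Med14 -0.0041 to 0.0332, Med25 -0.118 to 0.0662, Snrpa -0.129 to 0.0655, Polr2a -0.0401 to 0.0281, Srsf5 -0.0635 to 0.0184, Exosc10 -0.0426 to 0.0028, Polr3k -0.205 to 0.0155, Ddx55 -0.0842 to 0.114, Srsf2 -0.0876 to 0.0174, Med20 -0.119 to 0.485 and Hnrnpa1 -0.691 to 0.618.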
